A study of Homo sapiens with 9 samples.

Results

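The comparison set shRNA-146 against shRNA-143, a pair of short hairpin RNA constructs aimed at NFATC2, in THP-1 cells, over all measured genes. It takes 6 of the 9 libraries of the series, chosen by construct name, with 3 libraries per construct and no control library in the test. Of 58735 genes in the count table, 14662 had enough counts in these libraries to be tested. The THP-1 line, grown from a human acute myeloid leukaemia and monocytic in character, carries the MLL-AF9 fusion (KMT2A-MLLT3). Every group was spinoculated with lentivirus made in 293T cells, placed under puromycin from 24 hours, and harvested for polyadenylated RNA at 48 hours. The groups differed in the hairpin: shRNA-143 is labelled as knockdown construct 1, shRNA-146 as construct 2, and the control libraries carry a non-targeting hairpin. The samples are bulk RNA of whole transduced cultures of a single line. The replicates are called biological. Separate cultures are not named in the labels used here. The p-values of the main test cover only how far the difference between the constructs varied among replicate numbers. Part or all of that spread may be technical. In bulk RNA, fewer cells expressing a gene and less RNA per cell cannot be told apart.

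NFATC2 is a transcription factor held in the cytoplasm by phosphorylation. A rise in calcium activates the phosphatase calcineurin, which dephosphorylates NFAT proteins so that they enter the nucleus and bind DNA at sites with the core GGAAA. A hairpin RNA is processed by Dicer and guides Argonaute to matching transcripts. Constructs with different hairpins against a shared target are used side by side because what they have in common can be read apart from what each does alone. The comparison of the constructs asks how far the transcriptomes of cells carrying them differed.

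Few genes passed in the main test of the constructs, and the number depended on the settings, as given below. With edgeR's quasi-likelihood test and Benjamini-Hochberg adjustment, 53 of 14662 genes (0.361%) passed an adjusted p of 0.05, of which 37 (0.252%) were higher with shRNA-146 and 16 (0.109%) lower. Those higher included SHISA5, a membrane protein of the endoplasmic reticulum and nucleus induced by p53, the haematopoietic transcription cofactor LMO2, the ribonucleotide reductase subunit RRM2 and the kinase CDK1. Those lower included CTNNB1, which encodes beta-catenin, the RNA exosome subunit EXOSC1 and the secreted semaphorin SEMA3A. Differences ran from 1.89-fold for DDX3X to 9.91-fold for PPP1R14C upward and from 1.93-fold for YOD1 to 3.67-fold for SEMA3A downward, and 44 of the 53 were past 2-fold (32 higher and 12 lower). The words past the threshold, passed and called refer to this edgeR test unless another tool is named. As alternatives with the same block, DESeq2 passed 256 of the 11251 genes to which it gave an adjusted p (2.28%; 159 or 1.41% higher and 97 or 0.862% lower), and limma-voom 68 of 14662 (0.464%; 48 or 0.327% higher and 20 or 0.136% lower). Over all tested genes the median log2 difference was 0.01, and 90.1% of genes lay within 1.5-fold. NFATC2 itself did not pass.

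The libraries of replicate number 1 stood apart from the rest before any test. They had 19828 (shRNA-143) and 18485 (shRNA-146) genes with a count, against 21132 to 21723 in the other shRNA libraries, at totals of 41822028 to 44669709 counts in all 6. On the first principal component, with 70.9% of the variance, they lay opposite to numbers 2 and 3. The fit compares the constructs within each replicate number, treating the number as a block, which leaves 2 residual degrees of freedom. This choice decides the calls: without the block, edgeR passed 0 genes, with 382 (2.61%) at an unadjusted p under 0.05 against 1296 with the block (8.84%; 760 or 5.18% upward and 536 or 3.66% downward), and the 53 genes had adjusted p-values from 0.0536 to 0.9999. DESeq2 without the block passed 33 genes, of which 24 are among the 53. Log2 differences within number 1 spread more widely across genes (SD 0.75) than within numbers 2 (0.41) and 3 (0.46).

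**Figure D1:**
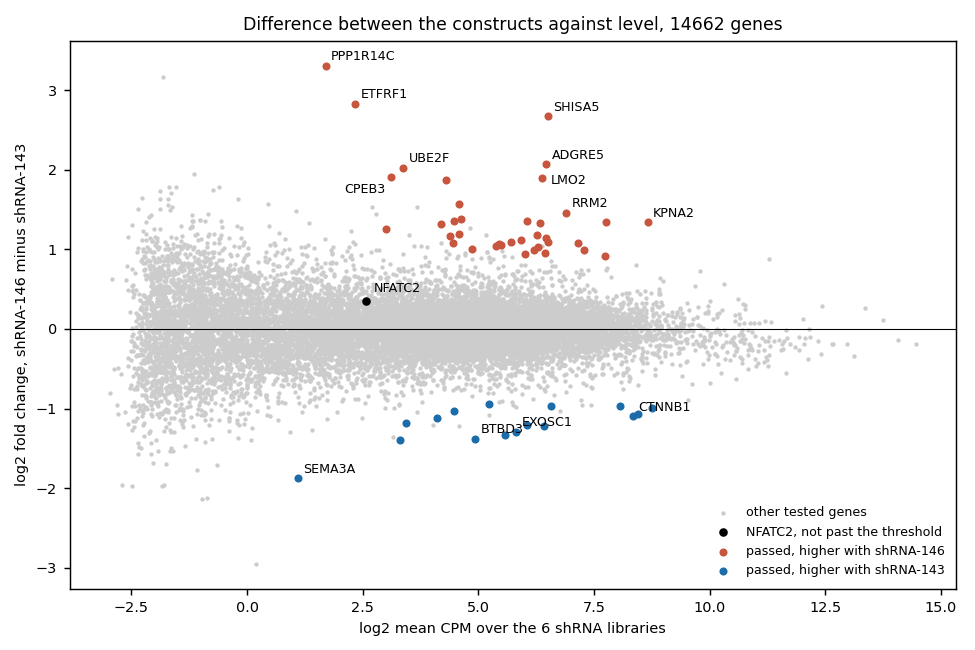
Each point is a tested gene; the horizontal axis is the log2 of its mean CPM (TMM-scaled) over the 6 shRNA libraries and the vertical axis its log2 fold change, shRNA-146 minus shRNA-143. The 37 coloured genes above 0 and the 16 below it passed the threshold, with PPP1R14C at 3.31 and SEMA3A at -1.87 as the extremes, while NFATC2 lies at 0.35 among the genes that did not pass.

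NFATC2 (ENSG00000101096, hg38 chr20:51386957-51562831, minus strand) was low with either construct. In CPM, counts scaled by TMM to a common library total, it stood at 1.48, 7.69 and 7.20 in replicates 1, 2 and 3 of shRNA-143. In shRNA-146 the values were 2.65, 6.94 and 9.75. The control libraries, scaled in the same way, held 13.1, 28.7 and 28.2. All 6 shRNA libraries were below all 3 controls, the lowest library of each group was replicate 1, and the constructs overlapped. The difference between the constructs was 0.35 ± 0.24 (log2 fold change ± SE, n = 3 libraries per construct; 95% interval -0.20 to 0.89; adjusted p = 0.724). Within replicate numbers it was 0.82, -0.15 and 0.43, so shRNA-146 was the higher in 2 of 3 numbers. The interval reaches 0.89, so these libraries do not show that the knockdown was equal.

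Promoter sequences are shown for the target and for the gene of smallest p in each direction, since the DNA core bound by NFAT proteins can be looked up in them. The letters are the 250 bases before the RefSeq start, from RefSeq's table on GRCh38.p14, 5′ to 3′ on the gene's strand, with the capitals marking GGAAA or its reverse complement TTTCC.
NFATC2, chr20:51562840-51563089, minus strand: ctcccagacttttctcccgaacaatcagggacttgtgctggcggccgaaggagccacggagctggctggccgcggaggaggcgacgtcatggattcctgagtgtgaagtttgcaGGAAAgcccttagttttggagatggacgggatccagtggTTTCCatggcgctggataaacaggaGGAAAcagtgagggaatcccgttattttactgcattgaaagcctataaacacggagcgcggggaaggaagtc
SHISA5, chr3:48504811-48505060, minus strand: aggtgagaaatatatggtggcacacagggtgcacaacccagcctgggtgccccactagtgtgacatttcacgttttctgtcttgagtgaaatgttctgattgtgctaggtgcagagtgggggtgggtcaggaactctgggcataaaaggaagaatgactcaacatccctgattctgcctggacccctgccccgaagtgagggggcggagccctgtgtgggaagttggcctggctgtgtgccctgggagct
BTBD3, chr20:11890567-11890816, plus strand: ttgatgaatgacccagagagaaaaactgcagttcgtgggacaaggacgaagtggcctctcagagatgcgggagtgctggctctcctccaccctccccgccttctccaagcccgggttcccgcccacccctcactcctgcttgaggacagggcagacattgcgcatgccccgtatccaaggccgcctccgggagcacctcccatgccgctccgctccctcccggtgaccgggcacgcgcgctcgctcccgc
In windows of 300 bases, from 250 before to 50 after the start, the NFATC2 promoter held 3 matches and those of SHISA5 and BTBD3 held 0. GGAAA on either strand was present in 61.4% of all 27305 windows and in 58.3% of the 10294 windows of tested genes. Of the 53 genes, 44 had a window and 16 of those held a match (36.4%), 12 of 32 among genes higher with shRNA-146 and 4 of 12 among genes lower. The matches included PPP1R14C (1), CDK1 (1), CUL4A (2), KPNA2 (2), GALNT7 (3), NREP (3), CTNNB1 (1) and MAT2B (2). A match is a run of letters, not a measured binding site, and a window without one says only that the letters are not in that window.

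SHISA5 (ENSG00000164054, chr3:48467798-48504826, minus strand), whose promoter is printed above, had the smallest p of all genes. Its CPM was 28.9, 24.4 and 20.8 in shRNA-143 replicates 1 to 3 and 161, 150 and 158 in shRNA-146, with 200.0, 154 and 212 in control. All shRNA-146 libraries were above all shRNA-143 libraries and lay at or near the lower end of the control range. The difference was 2.67 ± 0.16 (log2 fold change ± SE; 6.38-fold; adjusted p = 0.00214). SHISA5 is also known as scotin and promotes apoptosis when overexpressed. It is on the list of p53 target genes, where it was the 1 member of 30 tested that passed by edgeR and by limma-voom. In edgeR that is 3.33% of the list, against 0.252% of all tested genes upward. DESeq2 with the block passed SHISA5 and CDKN1A. PERP, a p53-induced gene that also passed by edgeR, is not on that list.

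PPP1R14C (chr6:150143076-150250357) encodes an inhibitor of protein phosphatase 1. It was at 0.790, 0.474 and 0.544 CPM with shRNA-143, against 6.26, 5.25 and 6.21 with shRNA-146, beside 5.23, 4.25 and 6.50 in control. The difference of 3.31 ± 0.25 (adjusted p = 0.00614) was the largest that passed, in a gene near 1 CPM or below in the shRNA-143 libraries. ETFRF1, which acts on the electron transfer flavoprotein of mitochondria, was at 1.53, 0.991 and 1.11 CPM with shRNA-143, compared with 13.0, 7.62 and 6.06 with shRNA-146 (2.83 ± 0.23, adjusted p = 0.00617). An exon of ETFRF1 overlaps one of a neighbouring gene, and the use of strand in counting is not known here, so its count is uncertain. Of the 53 genes, 25 have such an overlap with another annotated gene.

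Genes of blood cell identity and signalling were among those higher with shRNA-146; the grouping by role in this and the next paragraphs was made after the calls were known and carries no test. LMO2 (chr11:33858576-33892289, minus strand), which bridges transcription factors in blood stem and progenitor cells, was at 38.7, 33.2 and 33.6 CPM with shRNA-143 and 134, 123 and 134 with shRNA-146. Control libraries held 136, 101 and 124, inside or near the shRNA-146 range. The difference was 1.89 ± 0.14 (adjusted p = 0.00614), and LMO2 is on the lists of KMT2A fusion targets (29 tested) and of myeloid lineage transcription factors (31 tested). Among the fusion targets it was the 1 gene passed by edgeR, DESeq2 and limma-voom. Among the transcription factors edgeR passed LMO2 alone, limma-voom 2 genes and DESeq2 3, in each case with LMO2 among them. In edgeR LMO2 alone makes 3.45% of the fusion targets and 3.23% of the transcription factors, against 0.252% of all tested genes upward. ADGRE5, the adhesion receptor CD97 of leukocytes, stood at 27.7, 38.5 and 33.8 CPM with shRNA-143, against 93.8, 157 and 182 with shRNA-146 (2.07 ± 0.17, adjusted p = 0.00617). STAT5B, which carries cytokine receptor signals to the nucleus, was at 10.8, 15.1 and 13.1 CPM against 26.5, 30.1 and 30.2 (1.16 ± 0.15). The urokinase receptor PLAUR, at 48.1, 51.4 and 47.9 CPM with shRNA-143 and 104, 106 and 84.2 with shRNA-146 (0.99 ± 0.14, adjusted p = 0.0429), was the 1 member of the monocyte and macrophage list that passed by edgeR and by limma-voom, while DESeq2 passed PLAUR and ITGAM. PELI1, a ubiquitin ligase of Toll-like receptor signalling, UBASH3B, a phosphatase that restrains receptor signalling, and RASSF5, a RAS effector, differed by 1.25, 1.01 and 1.08.

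Some genes of nucleotide supply and the cell cycle were also among those higher with shRNA-146. RRM2 makes deoxynucleotides and stood at 69.8, 65.7 and 53.7 CPM with shRNA-143, compared with 220.2, 165 and 141 with shRNA-146 (1.46 ± 0.14, adjusted p = 0.0100). CTPS1, a CTP synthase, was at 103, 141 and 121 CPM against 279, 327 and 319 (1.35 ± 0.13, adjusted p = 0.0100). DGUOK, the mitochondrial deoxyguanosine kinase, was at 14.4, 11.1 and 10.8 CPM against 43.6, 29.8 and 34.8 (1.57 ± 0.15, adjusted p = 0.0100). The ranges of the constructs did not overlap in any of these genes. CDK1, the kinase that drives entry into mitosis, was at 128, 96.6 and 83.3 CPM with shRNA-143, against 302, 182 and 147 with shRNA-146 (0.99 ± 0.14, adjusted p = 0.0422), with replicate 1 the highest library of each construct. KPNA2, an importin that carries proteins into the nucleus, was at 254, 231 and 197 CPM against 715, 533 and 491 (1.34 ± 0.13, adjusted p = 0.0100). RRM2 was the 1 call among 55 DNA replication and G1/S genes, and CDK1 the 1 call among 62 mitosis and G2/M genes, by edgeR, DESeq2 and limma-voom with the block. In edgeR these are 1.82% and 1.61% of the lists, against 0.252% of all tested genes upward. The list medians were 0.05 and 0.10. Within numbers 1, 2 and 3 the replication list was at 0.27, -0.03 and -0.08 and the mitosis list at 0.20, 0.005 and 0.01.

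Enzymes of ubiquitin and ubiquitin-like conjugation appeared on both sides. UBE2F, which passes NEDD8 to cullins, was at 5.56, 2.97 and 2.54 CPM with shRNA-143, compared with 32.8, 9.32 and 9.06 with shRNA-146 (2.02 ± 0.23, adjusted p = 0.0191). CUL4A, a cullin scaffold, was at 46.3, 47.3 and 47.3 CPM against 126, 101 and 94.6 (1.18 ± 0.15). The conjugating enzyme UBE2B differed by 1.12 ± 0.16, UBE2L6, which conjugates ISG15, by 1.06 ± 0.14, the deubiquitinase USP12 by 0.94 ± 0.14 and KCTD2, an adaptor of cullin 3, by 1.38 ± 0.15. UBE2W, which ubiquitinates protein amino termini, was lower with shRNA-146, at 89.3, 54.7 and 57.5 CPM with shRNA-143 and 42.0, 21.4 and 19.7 with shRNA-146 (-1.33 ± 0.16, adjusted p = 0.0232). The deubiquitinase YOD1 (-0.95 ± 0.14), the cullin 3 adaptor KLHL15 (-1.03 ± 0.15) and SVIP, which restrains protein degradation at the endoplasmic reticulum (-1.40 ± 0.19), were lower too. Of the 42 tested proteasome subunits 0 passed by edgeR, DESeq2 or limma-voom with the block. By edgeR 3 upward (7.14%, against 5.18% of all tested genes) and 1 downward (2.38%, against 3.66%) had an unadjusted p under 0.05. The smallest p-values of the subunits belonged to PSMD10, of the regulatory particle (0.48, adjusted p = 0.302), and the immunoproteasome subunit PSMB9 (-0.37, adjusted p = 0.471).

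The remaining genes higher with shRNA-146 covered membranes, metabolism and RNA. ATP6V1A, the catalytic subunit of the proton pump that acidifies lysosomes, was at 60.3, 43.1 and 32.3 CPM with shRNA-143, against 161, 105 and 78.4 with shRNA-146 (1.33 ± 0.14, adjusted p = 0.0145). It was the 1 call among 50 lysosome and V-ATPase genes by edgeR and by limma-voom, and DESeq2 with the block passed 3, with ATP6V1A and ATP6V1B2 among them. The edgeR call is 2.0% of the list, against 0.252% of all tested genes upward. CPEB3, which binds messenger RNAs and regulates their translation, was at 3.47, 4.27 and 3.10 CPM against 16.3, 12.2 and 12.3 (1.91 ± 0.21, adjusted p = 0.0191). The control libraries held 7.49, 8.79 and 7.503 CPM of CPEB3, between the constructs. NECAP1, an adaptor of clathrin-coated vesicles, differed by 1.87 ± 0.16, and CISD2, an iron-sulfur protein of the endoplasmic reticulum and outer mitochondrial membrane, by 1.35 ± 0.15. MMD, SLC25A22, which carries glutamate into mitochondria, PERP, a p53-induced membrane protein, and the mitochondrial malic enzyme ME2 differed by 1.36, 1.31, 1.20 and 1.15. The glycosylation enzymes B4GALT1, GALNT7 and UXS1 differed by 1.09, 1.07 and 1.04, NREP and MEST by 1.09 each, the kinase HIPK1 by 1.03, and the paralogous RNA helicases DDX3X and DDX3Y by 0.92 and 0.95. Reads that match both DDX3X and DDX3Y could be assigned to either gene, which was not tested.

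Among the genes lower with shRNA-146, SEMA3A (chr7:83955777-84492724, minus strand), a secreted guidance cue, had the largest difference. It stood at 2.45, 3.84 and 3.76 CPM with shRNA-143, compared with 0.675, 1.08 and 0.973 with shRNA-146, with 2.39, 2.92 and 3.44 in control. The constructs did not overlap (-1.87 ± 0.25, adjusted p = 0.0351), at levels near 1 CPM with shRNA-146. BTBD3 (chr20:11890723-11926609), a BTB domain protein studied in neurons, was at 56.6, 39.97 and 35.7 CPM with shRNA-143, against 21.5, 17.8 and 12.04 with shRNA-146 (-1.38 ± 0.15, adjusted p = 0.0191). The control libraries held 36.2, 26.1 and 24.9, between the constructs in every replicate number. CTNNB1 (chr3:41194741-41260096), the transcriptional effector of WNT signalling and a component of cell junctions, was at 424, 458 and 450 CPM with shRNA-143, compared with 211, 214 and 199 with shRNA-146 (-1.09 ± 0.12, adjusted p = 0.0191). Control libraries held 383, 385 and 313 CPM of CTNNB1, above every shRNA-146 library and below every shRNA-143 library.

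EXOSC1, a cap subunit of the RNA exosome, was at 105, 60.3 and 73.9 CPM with shRNA-143, against 42.3, 28.7 and 26.4 with shRNA-146 (-1.29 ± 0.15, adjusted p = 0.0232). It was the 1 call among 21 RNA exosome genes by edgeR, DESeq2 and limma-voom with the block, and their median difference was 0.03. In edgeR that call is 4.76% of the list, against 0.109% of all tested genes downward. Membrane traffic and lipid genes lower with shRNA-146 were the early endosome GTPase RAB5C (-1.21 ± 0.18), the membrane scaffold STOM (-1.21 ± 0.15), the phosphatidylcholine carrier STARD7 (-1.07 ± 0.13) and the dynein adaptor BICD2 (-1.12 ± 0.16). BICD2 was the single gene of the 53 whose groups overlapped: it was at 6.14, 31.7 and 33.5 CPM with shRNA-143, compared with 2.88, 13.1 and 16.7 with shRNA-146, and the libraries of replicate 1 were the lowest of each construct. The methionine adenosyltransferase subunit MAT2B, the translation regulator BZW1 and MRFAP1 differed by -0.97, -0.99 and -0.96. AL033527.5 (-1.18 ± 0.18), which overlaps another annotated gene, was the 1 gene that passed by edgeR and is not annotated as protein coding. With 15 protein coding genes past the threshold in this direction, the next by p are named without having passed in edgeR: NPTN (-0.89, adjusted p = 0.0526), ARF5 (-0.95, 0.0594), LSM6 (-1.22, 0.0615), the iron exporter SLC40A1 (-0.91, 0.0638) and the calcium release channel ITPR1 (-0.92, 0.0806). DESeq2 with the block passed all 5 of these, and limma-voom all but ITPR1.

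**Figure D2:**
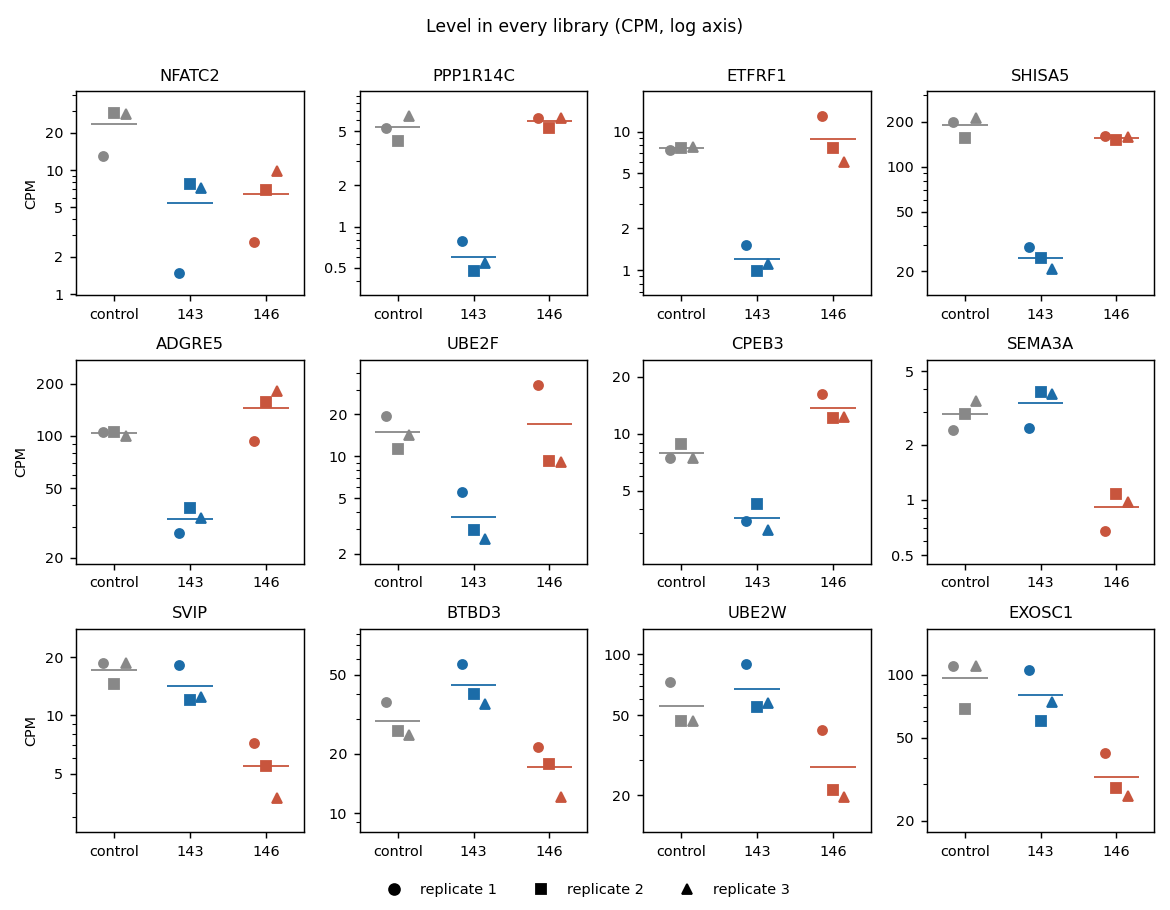
CPM (log axis) in every library of the control, shRNA-143 and shRNA-146 groups, with a symbol for each replicate number and a line at the group mean, for NFATC2, the 6 genes with the largest differences upward and 5 protein coding genes downward. SHISA5 has means of 189, 24.7 and 156 in control, shRNA-143 and shRNA-146, SEMA3A of 2.92, 3.35 and 0.910, and NFATC2 is low in both constructs, with means of 23.3, 5.46 and 6.45.

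All 53 genes had the same sign in all 3 replicate numbers, against 33.5% of tested genes, and the groups did not overlap in 52 of them, against 8.4% of tested genes. The threshold itself favours such genes, so these counts describe the calls and add no support. SLC25A22 and DDX3X were the last to pass (adjusted p = 0.0494 each), and MAP2K3 (0.95) and FGD5-AS1 (0.86) the first to miss it (adjusted p = 0.0507 each). The calls kept with a replicate number left out varied, as did the total number of calls. All 53 were called without replicate 1 and without replicate 3, but without replicate 2 only 36 were. Those fits passed 1424 of 14930 genes without replicate 1, 185 of 14664 without replicate 3 and 57 of 14712 without replicate 2. They reuse the same libraries, so the kept counts are a description and add no support. The 17 lost without replicate 2, with adjusted p-values from 0.0566 to 0.250, were SLC25A22, DDX3Y, PELI1, HIPK1, B4GALT1, GALNT7, KLHL15, UBE2L6, AL033527.5, UXS1, RASSF5, MAT2B, PLAUR, UBASH3B, YOD1, BICD2 and USP12. SHISA5, PPP1R14C, LMO2, RRM2, CTNNB1, BTBD3, SEMA3A and EXOSC1 passed without any 1 of the replicate numbers.

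**Figure D3:**
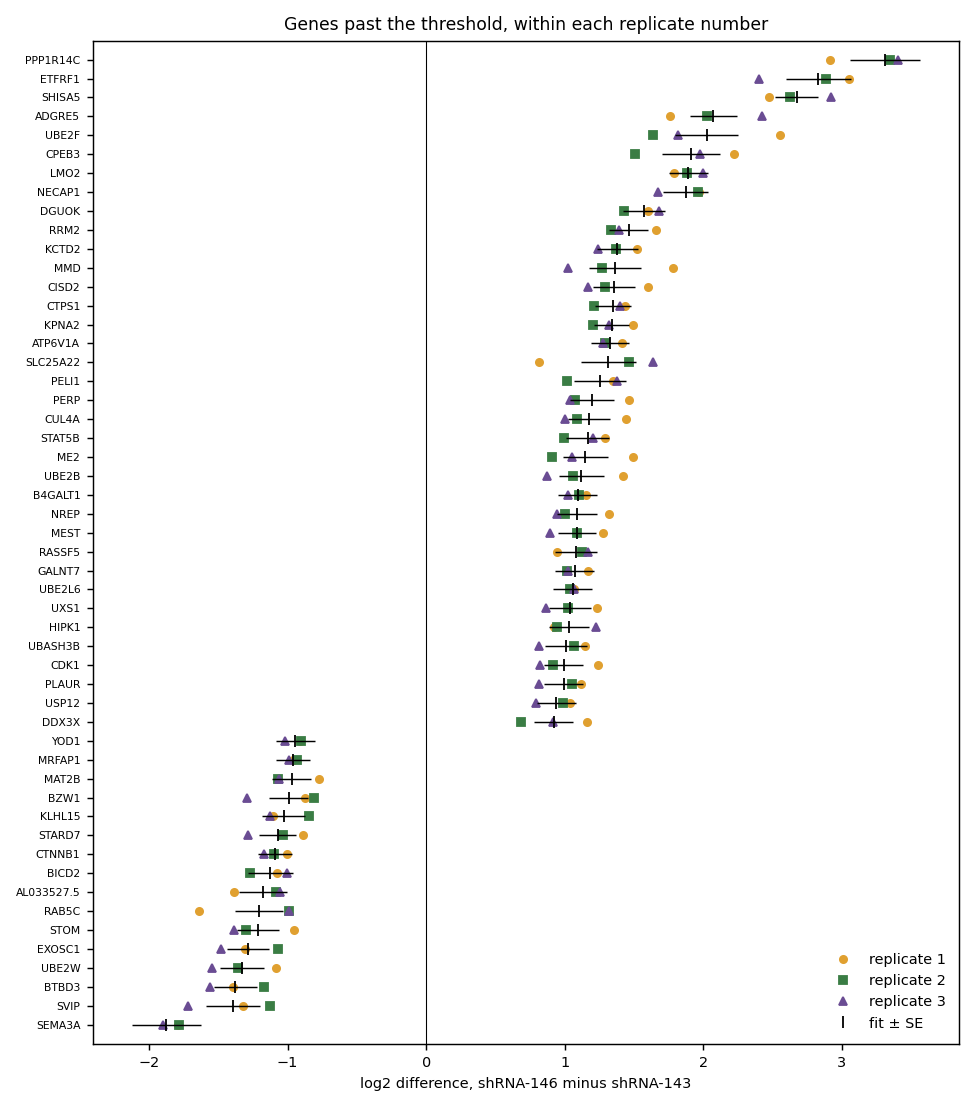
Log2 difference, shRNA-146 minus shRNA-143, within replicate numbers 1, 2 and 3 (symbols) and in the fit (tick, with a line of ± SE) for the genes past the threshold, DDX3Y left out. All symbols of a gene lie on the same side of 0; for SHISA5 they are at 2.47, 2.62 and 2.92, and for UBE2F at 2.55, 1.63 and 1.82.

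The control libraries, which entered no test here, place each construct. Of the 37 genes higher with shRNA-146, shRNA-143 lay farther from the control mean in 33, each time below it, and shRNA-146 lay farther in 4, each time above it. Of the 16 genes lower with shRNA-146, shRNA-146 lay farther and below control in 13, and shRNA-143 lay farther and above control in 3, which were BICD2, KLHL15 and YOD1. Among all tested genes shRNA-143 lay farther in 47.5%. The control mean fell between the construct means in 38 of the 53 (27 of those higher and 11 of those lower), against 23.1% of all tested genes. SHISA5 was 2.91 below control with shRNA-143 and 0.26 below with shRNA-146, as differences of mean CPM on the log2(CPM + 0.5) scale. DGUOK was below control with both (-2.07 and -0.53), SVIP too (-0.28 and -1.60), while UBASH3B was 0.20 below control with shRNA-143 and 0.79 above it with shRNA-146. Both distances use the same 3 control libraries, so they are given as values only. The 53 genes were also chosen for a large difference between the constructs, which leaves more room for a control mean between them. The shares among all tested genes are therefore no like measure, and these counts describe the calls and add no support.

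**Figure D4:**
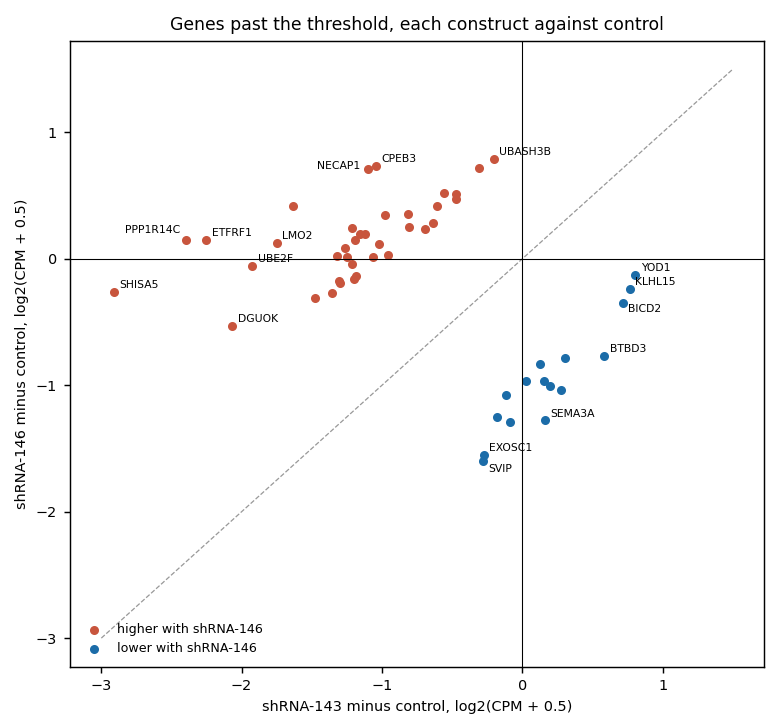
Each point is a gene past the threshold, by its distance from the control mean with shRNA-143 (horizontal) and shRNA-146 (vertical), both as log2(CPM + 0.5), with the dashed line where the constructs are equal. Of the 37 genes higher with shRNA-146, 33 lie farther from control on the horizontal axis, such as SHISA5 at -2.91 and -0.26, and of the 16 lower, 13 lie farther on the vertical axis, such as EXOSC1 at -0.28 and -1.55.

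Gene lists were described by counts and medians, with no test of a list. The 1281 tested members of any list held 6 genes higher (LMO2, SHISA5, RRM2, CDK1, ATP6V1A and PLAUR; 0.468% against 0.252% of all tested genes) and 1 lower (EXOSC1; 0.0781% against 0.109%). At an unadjusted p under 0.05 in edgeR they held 102 upward (7.96%) and 73 downward (5.7%), against 5.18% and 3.66% of all tested genes, the shares beside which the counts per list below are given. The lists are small, so that 1 member is a large share of most. The NFAT family, calcineurin and calcium entry list had 34 tested members, a median difference of 0.08, and 0 past the threshold by edgeR, where 2 upward and 1 downward had an unadjusted p under 0.05. DESeq2 with the block passed 1 member, ITPR1, which was lower, and limma-voom 0. ITPR1 stood at 29.3, 72.4 and 70.8 CPM with shRNA-143 and 18.9, 35.1 and 33.8 with shRNA-146, and the scaffold HOMER2 at a mean of 2.39 against 3.65 CPM (0.61 ± 0.22, adjusted p = 0.448). Of 28 NFAT target genes 13 had enough counts to be tested, with a median of 0.12, 10 of 13 above 0 and 0 past the threshold by edgeR (2 upward with an unadjusted p under 0.05), against 1 by DESeq2 with the block and 0 by limma-voom. The cell cycle inhibitor CDKN1A, at 55.2 against 110 CPM, had the smallest p among them and did not pass by edgeR (1.04 ± 0.25, adjusted p = 0.184), though it was the gene that DESeq2 passed. The cyclin CCND1 followed (0.63, adjusted p = 0.542).

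Cytosolic ribosomal proteins, mitochondrially encoded proteins and nuclear genes of oxidative phosphorylation had negative medians, with 0 members past the threshold by edgeR, DESeq2 or limma-voom with the block. The 85 tested cytosolic ribosomal protein genes had a median of -0.20, with 80 below 0. In edgeR 18 downward (21.2%, against 3.66% of all tested genes) and 0 upward (against 5.18%) had an unadjusted p under 0.05. RPS6, a protein of the small subunit, was at 5029, 2861 and 3644 CPM with shRNA-143, against 3050, 2412 and 2248 with shRNA-146 (-0.56 ± 0.14, adjusted p = 0.233), so the groups overlapped. RPL14, of the large subunit, came next (-0.51, adjusted p = 0.291). The 13 mitochondrially encoded proteins had a median of -0.31 with 13 of 13 below 0, and 5 downward (38.5%) and 0 upward had an unadjusted p under 0.05. MT-ATP8, a subunit of ATP synthase, differed by -0.54 (adjusted p = 0.271). MT-ND1, a subunit of respiratory complex I, was at 2105, 2793 and 2989 CPM against 1476, 2500 and 2003 (-0.42 ± 0.14, adjusted p = 0.404). Mitochondrial genes took 6.01%, 5.68% and 5.56% of counts in shRNA-143 and 5.66%, 5.01% and 4.39% in shRNA-146, and their part in other results was not tested. Among 78 nuclear genes of oxidative phosphorylation, with a median of -0.14, 62 were below 0, and 6 downward (7.69%) and 0 upward had an unadjusted p under 0.05. The smallest p-values were those of the electron carrier CYCS (-0.40, adjusted p = 0.404) and the complex I subunit NDUFB7 (-0.43, adjusted p = 0.473). Within replicate number 2 their median was 0.02, against -0.22 and -0.23 within numbers 1 and 3. The 78 tested mitochondrial ribosomal proteins had a median of -0.09, with 51 below 0, and 3 upward (3.85%) and 4 downward (5.13%) at an unadjusted p under 0.05. Of these, edgeR and limma-voom passed 0 and DESeq2 with the block passed 1 in each direction. MRPL13 was at 97.5, 59.2 and 62.7 CPM with shRNA-143, against 59.6, 32.7 and 23.9 with shRNA-146 (-0.98 ± 0.17, adjusted p = 0.0859 by edgeR and 6.4e-05 by DESeq2), so the groups overlapped. MRPL50 was at 18.0, 12.5 and 12.3 CPM against 34.4, 20.2 and 18.7 (0.74 ± 0.16, adjusted p = 0.1496 by edgeR and 0.0151 by DESeq2), with no overlap.

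Monocyte and interferon lists had positive medians. The 43 tested monocyte and macrophage genes had a median of 0.22, with 31 above 0, 1 past the threshold by edgeR (PLAUR; 2.33% of the list, against 0.252% of all tested genes in that direction), and 11 upward (25.6% against 5.18%) and 1 downward (2.33% against 3.66%) with an unadjusted p under 0.05. The summed level of the 50 list members found by name was taken on plain library totals. It was 4423 to 5106 CPM with shRNA-143 and 4886 to 6607 with shRNA-146, ranges that overlap, with 5683 to 6839 in control. The 56 interferon-stimulated genes had a median of 0.16 with 37 above 0 and 0 past the threshold by edgeR or limma-voom, against 2 by DESeq2 with the block, IFIT2 and IFIT3 (9 upward, or 16.1%, and 1 downward, or 1.79%, had an unadjusted p under 0.05 in edgeR). The mean summed level of the 56 genes, scaled by TMM, was 1356 CPM with either construct. UBE2L6, which conjugates ISG15 and passed by edgeR, is not on this list. IFIT2, an RNA-binding antiviral protein, was at 3.57, 4.89 and 4.82 CPM against 5.01, 10.8 and 12.02 (0.99 ± 0.22, adjusted p = 0.165 by edgeR), and IFIT3, of the same family, differed by 0.76 (adjusted p = 0.153). The NF-kB and inflammatory list, with 34 tested, lay at a median of 0.12 with 0 past the threshold by edgeR or limma-voom and 1 by DESeq2, ICAM1 (5 upward, or 14.7%, and 0 downward had an unadjusted p under 0.05 in edgeR). Within numbers 1, 2 and 3 the medians of the NF-kB and inflammatory list were -0.09, 0.12 and 0.23. The chemokine CCL2 had a difference of 0.995 on the log2 scale (adjusted p = 0.329). The granulocyte and promyelocyte list (20 tested) lay at a median of -0.16, with 0 past the threshold by edgeR or limma-voom and 1, the lower SERPINB10, by DESeq2; 0 upward and 3 of 20 downward had an unadjusted p under 0.05 in edgeR. The granule protease CTSG differed by -0.38 (adjusted p = 0.481). Summed over the 21 granulocyte and promyelocyte genes found by name, levels of 20130 to 25190 CPM with shRNA-143 and 23690 to 24360 with shRNA-146 overlapped. Heat shock and chaperonin genes had a median of 0.13 over 43 tested identifiers, and HSP90AB1, a cytosolic chaperone, was short of the threshold in edgeR at 1458, 1940 and 1903 CPM against 3270, 3154 and 3233 (0.88 ± 0.14, adjusted p = 0.0615). The cochaperone CHORDC1 differed by 0.73 (adjusted p = 0.129). DESeq2 with the block passed HSP90AB1 and CHORDC1 as higher and DNAJC19 as lower, and limma-voom HSP90AB1.

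**Figure D5:**
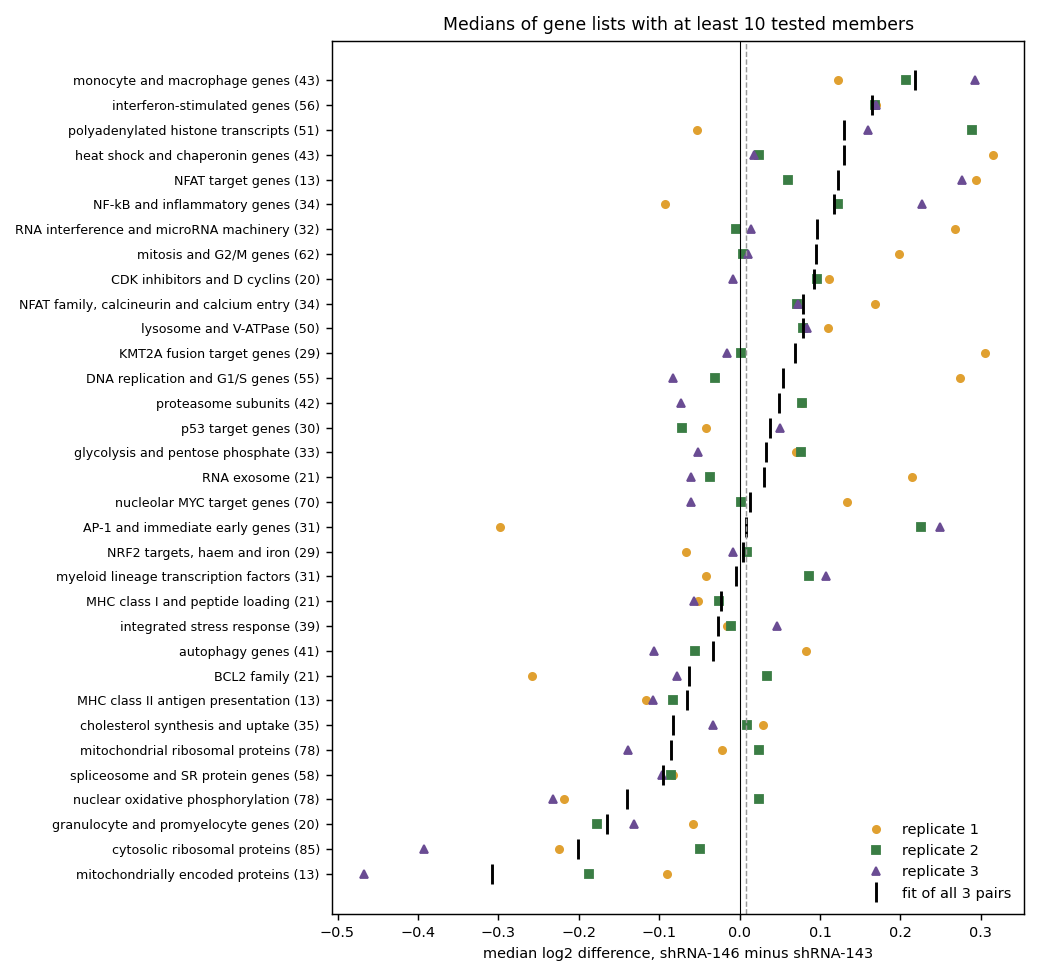
Median log2 difference, shRNA-146 minus shRNA-143, of each list with at least 10 tested members (number in brackets), from the fit (tick) and within each replicate number (symbols); the dashed line is the median of all genes, 0.01. The fitted medians run from -0.31 for mitochondrially encoded proteins to 0.22 for monocyte and macrophage genes, and the AP-1 and immediate early genes are at -0.30, 0.23 and 0.25 within numbers 1, 2 and 3.

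In the other lists with at least 10 tested members edgeR passed 0 genes, and the medians lay between -0.09 and 0.13. The 51 polyadenylated histone transcripts had a median of 0.13, with 9 upward (17.6%, against 5.18% of all tested genes) and 0 downward (against 3.66%) at an unadjusted p under 0.05 in edgeR, and 0 passing by DESeq2 or limma-voom. Of smallest p were H2AFY, which encodes macroH2A1 (0.50, adjusted p = 0.216), and HIST1H2AC (1.03, adjusted p = 0.233). Their medians within numbers 1, 2 and 3 were -0.05, 0.29 and 0.16. The 58 spliceosome and SR protein genes had a median of -0.09, with like values within the numbers (-0.08, -0.09 and -0.10), and its members of smallest p were SF3B4 (-0.36, adjusted p = 0.424) and PRPF31 (-0.39, adjusted p = 0.489). The 32 genes of RNA interference and microRNA machinery, through which hairpins act, had a median of 0.10, with 1 upward and 2 downward at an unadjusted p under 0.05, and DESeq2 with the block passed 1 of them, TNRC6A. Medians were 0.01 for nucleolar MYC target genes (70 tested), -0.06 for the BCL2 family (21), -0.03 for integrated stress response genes (39), -0.03 for autophagy genes (41) and -0.08 for cholesterol genes (35). For NRF2 targets, haem and iron (29 tested, median below 0.01), DESeq2 with the block passed 2 in each direction (SQSTM1 and HMOX1 higher, SLC40A1 and NCOA4 lower) and limma-voom 1, SLC40A1.

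In the same lists, the members of smallest p were as follows. Of the nucleolar list they were RRP1B (0.50, adjusted p = 0.404) and the RNA polymerase I subunit POLR1A (-0.42, adjusted p = 0.488), and of the BCL2 family BCL2A1 (1.37, adjusted p = 0.399), at 1.40 CPM at most in all 6 libraries. In the integrated stress response, the cysteinyl-tRNA synthetase gene CARS differed by 0.74 (adjusted p = 0.138) and was the member passed by DESeq2, and the transcription factor ATF3 by 0.95 (adjusted p = 0.215). Of the autophagy genes, the receptor CALCOCO2 (-0.63, adjusted p = 0.201) and MAP1LC3B, whose product coats autophagosomes (0.64, adjusted p = 0.170), were passed by DESeq2, as was SQSTM1. Among the cholesterol genes, the exporter ABCA1 stood at 11.8, 10.2 and 20.1 CPM with shRNA-143, against 31.7, 16.5 and 32.9 with shRNA-146 (0.94 ± 0.19, adjusted p = 0.138), and was the member passed by DESeq2. The groups overlapped in ABCA1. The sterol reductase DHCR7 differed by 0.61 (adjusted p = 0.235). Glycolysis and pentose phosphate genes (33 tested, median 0.03) were led by the glucose transporter SLC2A1 (0.51, adjusted p = 0.215) and RPIA (-0.58, adjusted p = 0.250), with 0 passing by DESeq2 or limma-voom. Among CDK inhibitors and D cyclins (20 tested, median 0.09), CDKN1A was passed by DESeq2, and the retinoblastoma gene RB1 differed by 0.51 (adjusted p = 0.315). In the AP-1 and immediate early list (31 tested), KLF2 was passed by DESeq2 and limma-voom and is described with the other observations. For antigen presentation the values were 0.56 for CANX (adjusted p = 0.218) and 0.46 for PSME2 (adjusted p = 0.257) in the MHC class I list (21 tested), and -0.24 for HLA-DRA (adjusted p = 0.672) and -0.26 for HLA-DQB1 (adjusted p = 0.710) in the MHC class II list (13 tested), with 0 passing by DESeq2 or limma-voom. Adjusted p-values in this paragraph are those of edgeR.

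Myeloid identity was checked by the marker lists. Granulocyte and promyelocyte genes had 20 of 27 and monocyte and macrophage genes 43 of 53 listed genes tested. Of 22 T and NK cell markers 12 were found by name, and 1 of these (LCK) had no count in the 6 libraries. Names were available for 25108 of 58735 genes, and the counts of markers not found by name were not examined. Of markers of other cells, 5 of 22 T and NK cell, 4 of 15 B and plasma cell, 5 of 22 erythroid and megakaryocyte, and 5 of 17 epithelial and stromal genes were tested. Over the 12 T and NK cell genes found by name, summed levels were 13.98 to 18.7 CPM (shRNA-143) and 13.2 to 16.6 (shRNA-146). The 9 B and plasma cell genes found by name gave 32.4 to 38.3 and 23.5 to 53.2. The erythroid list gave 14.7 to 17.6 and 10.4 to 16.7 over 9 genes, and the epithelial list 89.2 to 220.5 and 142 to 240.7 over 11. These ranges overlap between the constructs for every list, and 0 of these markers passed by edgeR, DESeq2 or limma-voom with the block, with 1 at an unadjusted p under 0.05 by edgeR, COL1A1 (0.59 ± 0.25, adjusted p = 0.560). The other members of smallest p were KRT8 of the epithelial list (-0.50, adjusted p = 0.573), GNLY (-0.73, adjusted p = 0.712) and NCAM1 (-0.19, adjusted p = 0.917) of the T and NK list, GP9 (-0.66, adjusted p = 0.714) and EPOR (-0.25, adjusted p = 0.735) of the erythroid list, and CD79B of the B cell list (0.08, adjusted p = 0.938).

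Gene length moved with the difference within replicate number 1. In 5 equal bins of tested genes by length, medians of the fit ran from -0.05 in the shortest to 0.05 in the longest, those within number 1 from -0.13 to 0.20, and those within number 2 from 0.04 to -0.06. A correction for length with the block passed 58 genes, 52 of them among the 53. Leaving out both libraries of number 1 raised the count to 1424 of 14930 genes (9.54%), 793 higher (5.31%) and 631 lower (4.23%), in a fit with 1 residual degree of freedom. Of the 1415 of these that were tested in all 6 libraries, 932 (65.9%) had the same sign within replicate 1, against 51.2% of all tested genes. Without that number the cytosolic ribosomal list had 0 higher and 4 lower, the monocyte and macrophage list 10 higher and 1 lower of 43, and the interferon list 10 higher and 1 lower of 56.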

How the data were processed

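RNA-seq of polyadenylated RNA was compared between 3 shRNA-146 and 3 shRNA-143 libraries, with 3 control libraries shown beside them. The authors deposited raw counts for 58735 Ensembl gene identifiers, all in GENCODE release 29, with totals of 40047459 to 44669709 per library. Gene names were available for 25108 of them, and lists were matched by those names. Per the submitters' processing notes the tools were STAR 2.5, featureCounts, fastp and DESeq2 on the hg38 build. The role of each, and strand use in counting, are not given in the sources used here. The authors' 2 comparison tables also hold a size-scaled signal, FPKM, log2 fold changes and p-values, per the file headers; only their gene names, biotypes and lengths were used, and their deposited counts matched the count table.

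Counts were filtered with filterByExpr (14662 genes kept), TMM-scaled and tested by quasi-likelihood in edgeR 4.0.16 (R 4.3.3; glmQLFit robust and glmQLFTest) on construct plus replicate number, with Benjamini-Hochberg adjustment over all tested genes and a threshold of 0.05. SE is that implied by the fold change and its F statistic. The fit was tested on simulated data with known changes, drawn with a spread set by expression level alone. That simulation checked that median differences were recovered and does not measure the error rate of the calls here. CPM precision rests on these depths and 3 libraries per group.

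What replicate numbers share is not labelled. Deviations from each construct's mean (log2 CPM, prior count 2) correlated across genes at 0.71, 0.58 and 0.58 between libraries of the same number. Between libraries of different numbers the correlations were -0.68 to 0.56. The pairing follows the replicate numbers in the library titles. That libraries of a number belong together is seen only in these same counts, and numbers 2 and 3 are thinly told apart. No library repeated another (chi-square per degree of freedom 22.4 to 429).

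Named genes were NFATC2, the 20 protein coding genes with the largest differences in each direction among those past the threshold, at a mean of at least 1 CPM and with the same sign in all numbers (with the next by p where fewer passed), list members past the threshold or of smallest p, and non-coding genes past it. The other genes past the threshold, MAP2K3, FGD5-AS1 and further list members passed by DESeq2 (ITGAM, ATP6V1B2, DNAJC19, NCOA4, HMOX1) were named after their values were seen. Genes and lists were chosen with earlier results of these data known. Of the genes that the rule names, 1 is not reported here, nor are some list members passed by DESeq2. Alternatives were other scalings, filters, tools (DESeq2 1.42.0, limma 3.58.1), no block, 9 libraries, a length correction and left-out replicates.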

Additional observations from a re-analysis of the deposited data

How the results depend on the processing

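The count of 53 genes became 39 with library size scaling (31 higher, 8 lower), 45 with median-of-ratios scaling, 37 with upper quartile scaling, 68 with limma-voom and 58 with a length correction. It was 33 with a stricter filter on low counts (25 higher, 8 lower), 391 with no filter (206 and 185), 256 with DESeq2 and the block (159 and 97), 33 with DESeq2 and no replicate block (26 and 7) and 178 with 9 libraries in the fit (115 and 63); all 53 were among the calls of the no-filter, DESeq2 block, limma-voom and 9-library fits. With no replicate block edgeR passed 0 (0 higher, 0 lower). Leaving out replicates 1, 2 and 3 with the block gave 1424, 57 and 185 genes, with 793, 31 and 84 higher and 631, 26 and 101 lower. The share of higher calls moved from 69.8% to 79.5% with library size scaling, 55.7% without replicate 1, 54.4% without replicate 2 and 45.4% without replicate 3. Leaving out single libraries without the block gave 0 in every direction, with 188 to 682 at an unadjusted p under 0.05. No setting reversed any of the 53 genes. The NFATC2 difference ran from -0.21 to 0.62 over the left-out replicates and turned negative without shRNA-143 replicate 1 (-0.21) and without shRNA-146 replicate 3 (-0.19), both with no block. Also turning sign over left-out replicates were POLR1A (-0.59 to -0.28 with the block, -0.75 to 0.16 without), NCAM1 (-0.47 to 0.17 with the block, -0.67 to 0.226 without; also of turned sign 0.142) and CD79B (-0.19 to 0.48 with the block, -0.18 to 0.351 without; also of turned sign -0.092, -0.151, -0.0195). The causes were not tested. Depth limits the genes near 1 CPM, PPP1R14C with shRNA-143 and SEMA3A with shRNA-146.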

Other observations

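Some genes that did not pass in edgeR had larger differences within replicate numbers 2 and 3 than within number 1. KLF2, a transcription factor of monocytes and endothelium, stood at 7.24, 4.68 and 7.43 CPM with shRNA-143, compared with 12.7, 18.2 and 26.2 with shRNA-146, which gives differences of 0.81, 1.95 and 1.81 within numbers 1, 2 and 3 (1.54 ± 0.25 in the fit, adjusted p = 0.0615). The groups did not overlap, and all shRNA-146 libraries were above all control libraries (8.71, 6.13 and 11.4 CPM). CDKN1A, which inhibits cyclin-dependent kinases, was at 78.2, 45.7 and 41.8 CPM against 92.3, 125 and 112, with differences of 0.24, 1.45 and 1.42. ICAM1, an adhesion molecule induced by NF-kB, was at 1.38, 1.87 and 0.974 CPM against 2.05, 4.84 and 3.98 (1.33 ± 0.31, adjusted p = 0.182). The autophagy receptor SQSTM1 differed by 0.25, 0.95 and 0.97 within the numbers (adjusted p = 0.215), though its exons overlap other genes. The serpin SERPINB10, at 10.96, 11.96 and 15.4 CPM against 7.14, 3.67 and 4.56, differed by -0.61, -1.69 and -1.75 (adjusted p = 0.114). In edgeR with the block none of these genes changed past the threshold in the fit of all 3 numbers. DESeq2 with the block passed all 5 (adjusted p from 1.5e-06 for KLF2 to 0.0291 for ICAM1), and limma-voom passed KLF2 (0.0399). With 9 libraries in the fit, edgeR passed KLF2 (adjusted p = 0.00962) and SERPINB10 (0.0214).

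Other genes short of the threshold in edgeR had their largest difference within number 1. TARBP2, a partner of Dicer, was at 140, 92.9 and 116 CPM with shRNA-143, against 57.9, 85.4 and 89.9 with shRNA-146, with differences of -1.27, -0.12 and -0.36 (adjusted p = 0.488). The apoptosis effector BAK1 was at 198, 118 and 116 CPM against 84.3, 108 and 91.3, with differences of -1.23, -0.13 and -0.34 (adjusted p = 0.489). TNRC6A, a partner of Argonaute, differed by 1.40, 0.54 and 0.50 (adjusted p = 0.235), and passed in DESeq2 with the block (adjusted p = 0.0269). What sets the libraries numbered 1 apart is not stated in the labels.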
